A study of Mus musculus with 16 samples.

Results

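The stroma of the transverse colon was compared between mice with colitis from dextran sulfate sodium (DSS) and uninjured mice, cell class by cell class. The cells were those that the authors' annotation assigns to the stromal layer, 3993 cells of the 10 mice compared: 2256 from 6 DSS mice and 1737 from 4 uninjured mice. The whole data set held 22717 cells, of which 12833 came from these 10 mice and 7509 were stromal cells of all 16 mice. Cells whose annotated type name contains FB were taken as fibroblasts (3113 cells), and the other 880 cells were kept apart as other stroma, 519 of them endothelial.

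Single-cell RNA-seq was made with 1 library per mouse from female C57Bl/6J mice, 7 weeks of age per the labels, each animal being 1 replicate. The DSS mice drank water with 4% DSS, a sulfated polysaccharide toxic to colon epithelium, up to the day of collection, and received 10 mg/kg of an anti-GFP antibody on day 4, in place of the SZN-1326-p that other DSS mice received. Cells were collected on day 5 or day 6, that is 24 h or 48 h after the antibody, from 3 DSS mice and 2 uninjured mice at each time. The labels name neither DSS nor an antibody for the uninjured mice, so DSS and the antibody cannot be told apart here, and no mouse was collected after DSS was withdrawn. The SZN-1326-p arm (6 DSS mice) entered no comparison and added only to the estimate of spread between mice.

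Fibroblasts of the colon form the matrix under the epithelium and make up the niche of the crypt. Those at the crypt base supply R-spondins and BMP antagonists such as gremlin, which keep stem cells dividing, while those higher up supply BMP ligands and noncanonical Wnt ligands, under which epithelial cells differentiate. In injury fibroblasts also sense interleukin-1, oncostatin M and interferon, and release chemokines, acute phase proteins and matrix proteases, while endothelial cells of small vessels present adhesion molecules to leukocytes.

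The annotation was read against marker genes. The summed level of 8 fibroblast markers was 156 to 214 normalized unique molecular identifiers (UMIs) per cell in fibroblasts and 6.42 to 13 in other stroma, and that of 8 endothelial markers was 0.135 to 0.299 in fibroblasts and 39.3 to 61.5 in other stroma. None of the 8 markers of enteric glia passed the filter on low values in fibroblasts. The libraries held 9616512 to 21335421 UMIs in all, 173 to 567 fibroblasts and 26 to 83 endothelial cells per mouse. Cells of the DSS mice were deeper: the median UMI count per fibroblast was 6813 ± 1121 (SD, n = 4) in uninjured mice and 11860 ± 1597 (SD, n = 6) in DSS mice, with no overlap (1.745-fold, exact two-sided permutation of arms within a time, p = 0.01, the smallest that 100 arrangements allow; adjusted p = 0.0217 over 13 measures). Endothelial cells went from 4144 to 5994 (1.434-fold, exact permutation p = 0.02), while immune cells of the same mice had 8373 and 7078 (0.859-fold, exact permutation p = 0.29). Levels below are normalized to each cell's size factor, and fibroblast genes were also tested among cells of 5000 to 15000 UMIs. Markers of other layers differed between the arms too. The summed level of 15 epithelial markers in fibroblasts was 6.93 to 19.7 in uninjured mice and 1.52 to 7.36 in DSS mice. In other stroma it was 2.46 to 19.8 over the 10 mice, a range that covers that of the fibroblast markers there. Not all 15 markers followed the sum: in fibroblasts 12 were called lower in DSS mice by limma and 1, Reg3b, higher (log2 difference 5.85, adjusted p = 0.000546). Reg3b was also called higher in other stroma (0 UMIs in uninjured and 585 in DSS mice) and in endothelial cells (0 and 369). At least 2 epithelial or 2 immune markers had a UMI in 92.5% to 99.5% of the fibroblasts of 9 mice, while DSS mouse 1 at 48 h stood apart at 54%. Without it 2267 genes were called in fibroblasts, 457 in other stroma and 267 in endothelial cells. Libraries also differed in long against short genes: uninjured mouse 1 and DSS mice 1 and 2 at 24 h stood at 0.278, 0.467 and 0.361 on a log2 scale and the other 7 at -0.235 to 0.0739. With a term for these libraries 3450 genes were called in fibroblasts in place of 2462, with 2449 of the 2462 kept. The summed level of 11 lymphoid and plasma cell markers in fibroblasts reached 38.7 and 24.5 in the uninjured mice 2 at 24 h and 48 h, against 0.105 to 0.423 in DSS mice. Of 12 myeloid markers, 7 passed the filter in fibroblasts and 3 rose (Il1b, S100a9 and Tyrobp), with a summed level of 0.156 to 0.29 in uninjured and 0.295 to 0.881 in DSS mice. The part of RNA from these cells in the results was not tested, and for several genes with more RNA in epithelial or immune cells that level is given below. The authors' treatment of doublets is not given in the sources used here, and no doublet caller was run.

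**Figure D1:**
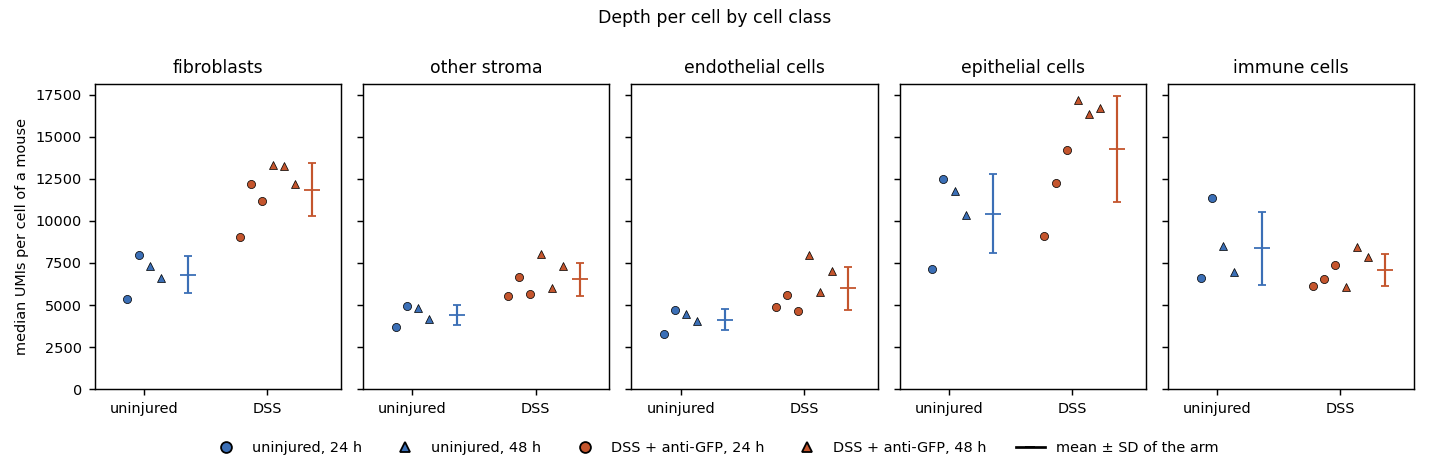
Median UMIs per cell of each mouse (y axis, from 0) for 5 cell classes in uninjured and DSS + anti-GFP mice. Circles are 24 h mice, triangles 48 h mice, and the bars give the mean and SD of an arm. In fibroblasts the 6 DSS mice lie above the 4 uninjured mice (means 11860 and 6813), while immune cells overlap (7078 and 8373).

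Each gene's level below is the mean of normalized UMIs over the fibroblasts of a mouse, 1 value per mouse, and a difference is DSS minus uninjured in log2(level + 0.01), with limma's standard error (SE) and adjusted p. The p-values measure the spread between mice. A class mean cannot separate a shift between fibroblast types from a change within a type, which is taken up further below, and fewer cells of a type cannot be told apart from less RNA per cell there. Of 11110 genes tested in fibroblasts, 1374 were higher in DSS mice (12.4%) and 1088 were lower (9.79%) at an adjusted p under 0.05. In 8.31% of genes a higher call went with no overlap between the 6 DSS mice and the 4 uninjured mice, and in 5.7% a lower call did. Against this background the medians and counts of the lists are to be read: the median difference over all genes tested was 0.0157. The filter asks for a level of 0.05 in any 2 mice. A gene near 0 in uninjured mice could therefore enter only through DSS mice, and only as higher. The reverse holds for a gene near 0 in DSS mice. List medians and counts by direction are in part fixed by this. Without uninjured mouse 1 at 48 h the number of genes called was 1570 in place of 2462, and with 1 time alone it was 1168 (24 h) and 901 (48 h).

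Fibroblasts of DSS mice carried acute phase transcripts at levels that hardly occurred in uninjured mice. Of 16 genes for acute phase and antimicrobial proteins, 11 passed the filter on low values, 9 of these were higher and none lower (12.4% of all genes were called higher), and their median log2 difference was 2.63. S100a9, with 0 UMIs in uninjured and 86 in DSS fibroblasts, could only come out higher. It is also 1 of the myeloid markers that rose above, so it counts in both lists. Saa3, serum amyloid A3, a lipid-binding protein secreted in inflammation (gene at chr7:46711998-46715700, minus strand), had 0.116 and 0.0127 normalized UMIs per cell in the uninjured mice at 24 h and 0.00402 and 0.0204 at 48 h. In DSS mice it ranged from 2.46 over a median of 13.1 to 20.9. The groups were far apart, with 43 UMIs in all uninjured and 50723 in all DSS fibroblasts, and the log2 difference was 8.30 ± 0.66 (SE, adjusted p = 1.06e-05). The gene Slc39a14, a zinc importer, stood at 0.15, 0.0681, 0.0884 and 0.121 in uninjured mice and at 0.548 to 1.06 (median 0.637) in DSS mice, again with no overlap (log2 difference 2.63 ± 0.21). Steap4, a metalloreductase of the plasma membrane, rose by 2.13 ± 0.20 and Ptx3, the pattern recognition protein pentraxin 3, by 2.70 ± 0.52 (1.84, adjusted p = 0.0707 among cells of 5000 to 15000 UMIs). Lcn2 (lipocalin 2, which binds bacterial siderophores) rose by 4.93 ± 0.57, Hp (haptoglobin) by 3.59 ± 0.57 and Lbp (lipopolysaccharide-binding protein) by 1.55 ± 0.39. Immune cells of the DSS mice held 5.79-fold more Lcn2 and 18.8-fold more Hp than fibroblasts did. The part of immune RNA in the fibroblast values was not tested, for these or for S100a9. Saa3 was 0.121-fold as high in the higher of the epithelial and immune layers. Among cells of 5000 to 15000 UMIs alone the calls of Lcn2 (2.54, adjusted p = 0.175), Hp (1.68, adjusted p = 0.347) and Lbp (0.74, adjusted p = 0.165) were lost, and that of Lbp also without uninjured mouse 1 at 48 h (1.33, adjusted p = 0.061). In limma-voom, which weights by depth, Lcn2 (6.73, adjusted p = 0.06), Hp (4.54, adjusted p = 0.159) and Lbp (1.47, adjusted p = 0.0651) did not pass either.

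**Figure D2:**
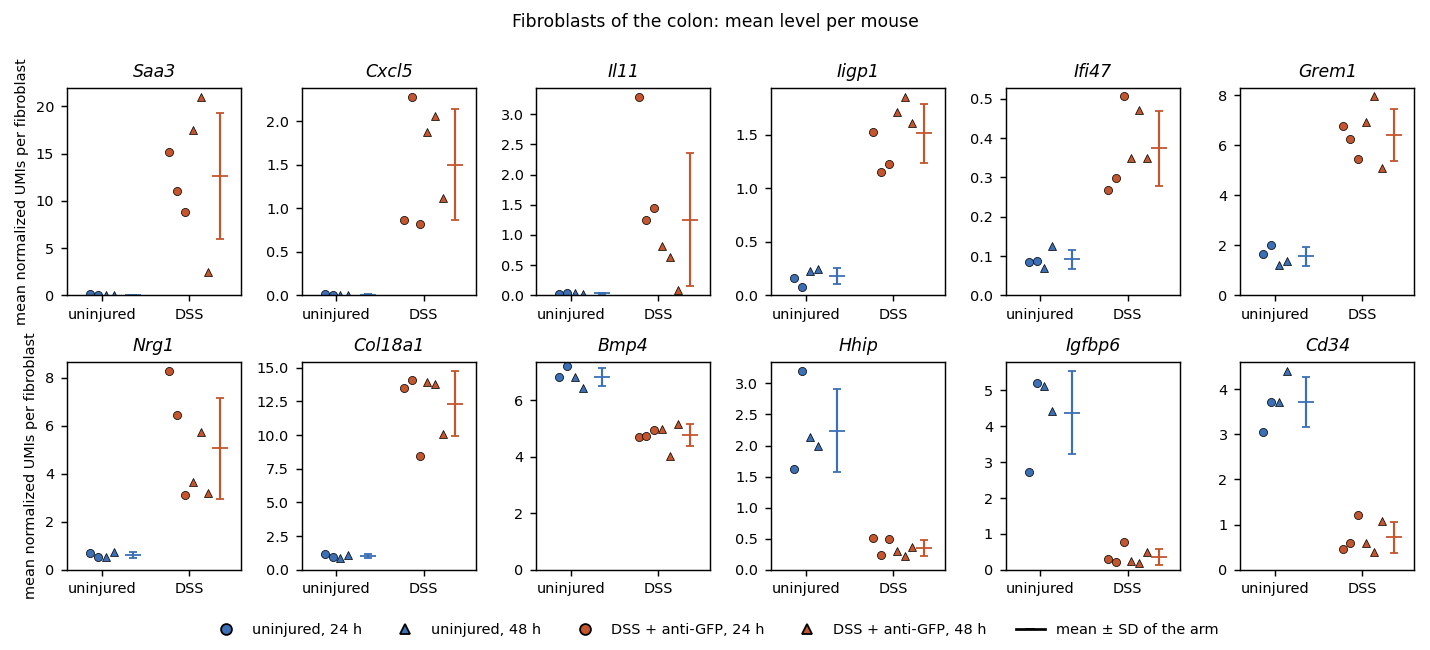
Mean normalized UMIs per fibroblast of each mouse (y axis, from 0, its range set for each gene) for 12 genes, with circles for 24 h, triangles for 48 h and bars for the mean and SD of the arm. All 6 DSS mice lie above the 4 uninjured mice for the genes from Saa3 to Col18a1 and below them for Bmp4, Hhip, Igfbp6 and Cd34, while Il11 spreads from 0.0868 to 3.28 within the DSS arm.

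Of 26 chemokine genes listed, 22 passed the filter, 14 of these were higher (12.4% of all genes were) and none lower, with a median log2 difference of 1.56. Ccl4, with 0 UMIs in uninjured and 203 in DSS fibroblasts, could only come out higher. Cxcl5, which draws neutrophils through the receptor CXCR2, was nearly absent in uninjured mice (0.013, 0.00549, 0 and 0.0109) and ranged from 0.825 to 2.28 (median 1.5) in DSS mice. The groups did not overlap, and the difference was 6.40 ± 0.30 (adjusted p = 1.69e-09). Cxcl13, which guides B cells, had 0.548, 0.0275, 0.437 and 0.206 in uninjured and 0.961 to 9.49 (median 2.58) in DSS mice, also with no overlap (3.88 ± 0.67, adjusted p = 0.00215). The monocyte chemokines followed. Ccl8 went from at most 0.325 to at least 1.04 (3.39 ± 0.28) and Ccl7 from at most 0.299 to at least 0.819 (2.54 ± 0.24). Ccl2 rose by 3.08 ± 0.57 on average, with an overlap, since uninjured mouse 2 at 48 h had 1.04 and the lowest DSS mouse 0.961. Cxcl1, another neutrophil chemokine, was at 0.407, 0.691, 0.951 and 1.45 in uninjured and at 0.807 to 2.85 (median 1.94) in DSS mice. This smaller rise (1.21 ± 0.31, adjusted p = 0.0109) overlapped and was not called without uninjured mouse 1 at 24 h (1.02, adjusted p = 0.0553) or mouse 1 at 48 h (1.06, adjusted p = 0.0512), nor among cells of 5000 to 15000 UMIs (0.38, adjusted p = 0.664). Ccl11, the eosinophil chemokine eotaxin, rose by 0.87 ± 0.22 from a high level (3.09 to 5.87 in uninjured mice), a call lost without uninjured mouse 1 at 24 h (0.64, adjusted p = 0.0529) and among cells of 5000 to 15000 UMIs (0.45, adjusted p = 0.175). Cxcl12, the constitutive chemokine of stromal niches, stood at 10.5 to 13.7 and at 5.99 to 16.8 (difference -0.11 ± 0.20, adjusted p = 0.742). Cxcl2 also rose (5.11 ± 0.53), but immune cells held 85.6-fold more of it than fibroblasts.

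Cytokine genes were higher more often than lower. Of 32 cytokine and receptor genes, 27 passed the filter, 15 were higher and 3 lower, with a median difference of 0.95. Over all genes 12.4% were called higher and 9.79% lower, which holds for the counts below in this paragraph too. The 15 include Il1b, which is also 1 of the myeloid markers that rose in fibroblasts. Il11, an interleukin-6 family member known from fibrotic and injured tissue (gene at chr7:4772373-4782859, minus strand), stayed between 0.0263 and 0.0394 in the uninjured mice and ranged from 0.0868 over a median of 1.04 to 3.28 in DSS mice. No mouse overlapped, but the DSS mice differed from each other more than for most genes named here (4.25 ± 0.68, adjusted p = 0.00135), and limma-voom did not call it (5.00, adjusted p = 0.0561). Il6 was at 0.0296, 0.126, 0.106 and 0.206 in uninjured and at 0.542 to 1.14 (median 0.648) in DSS mice (2.72 ± 0.41), and Il33, an alarmin of barrier tissue, at 0.184 to 0.418 and 0.528 to 1.2 (1.42 ± 0.26). Both were apart in all mice. Csf3, the granulocyte growth factor, had 1 UMI in all uninjured and 632 in all DSS fibroblasts, a ratio of 297 per UMI sequenced with a 95% counting interval of 53.2 to 11760, which covers counting error only (6.60, adjusted p = 0.166 by limma-voom). Receptors were higher too. Il1r1, the receptor of interleukin-1, went from 0.818, 0.46, 0.608 and 0.668 to 1.92 to 3.46 (median 2.7; 2.05 ± 0.19), and Osmr, which binds oncostatin M, from 0.466 to 0.653 up to 0.917 to 1.43 (1.09 ± 0.16). Il1rl1, the interleukin-33 receptor, rose by 3.22 ± 0.58. The 3 that fell were Tgfb3 (-1.06 ± 0.20), Tgfb2 (-0.44 ± 0.12; lost without uninjured mouse 2 at 48 h, -0.40, adjusted p = 0.0526) and Il15 (-1.01 ± 0.29; lost without uninjured mouse 2 at 24 h, -0.79, adjusted p = 0.0951, or mouse 2 at 48 h, -0.96, adjusted p = 0.0682). Feedback regulators and targets of the factor NF-kB were higher in 12 of 18 genes and lower in none (median 0.931), among them Bcl3 (2.43 ± 0.21), Tnfaip3 (2.27 ± 0.27; 12.1-fold higher in immune cells), Sod2 (1.74 ± 0.20) and Vcam1 (1.49 ± 0.13). Complement was mixed: 5 of 14 genes tested were higher and none lower, including C3 (1.88, 3.09, 1.41 and 3.27 in uninjured, 3.63 to 9.36 in DSS mice; 1.37 ± 0.27) and C4b (1.55 ± 0.19).

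Interferon response genes split into those that were higher and those that were not. Of 36, all passed the filter, 20 were higher and 1, Isg20, was lower, with a median difference of 0.644. Over all genes 12.4% were called higher and 9.79% lower, with a median of 0.0157. The guanosine triphosphatases induced by interferon gamma led: Iigp1 had 0.164, 0.08, 0.23 and 0.244 in uninjured and 1.16 to 1.85 (median 1.57) in DSS mice, with no overlap (3.10 ± 0.21, adjusted p = 5.52e-09). Ifi47 rose by 1.90 ± 0.20, Igtp by 1.29 ± 0.20 and Gbp2 by 1.08 ± 0.16, each with the DSS mice above every uninjured mouse. Other genes induced by interferon did not pass: Ifit3 stood at 0.142 and 0.144 on average (adjusted p = 0.997), Ifit1 differed by 0.66 (adjusted p = 0.142) and Irf7 by 0.14 (adjusted p = 0.676). Isg15 did pass, at 0.149 to 0.211 in uninjured and 0.285 to 0.676 in DSS mice (0.91 ± 0.22). Immune cells of the DSS mice held 4.78-fold more Gbp2 and 5.86-fold more Isg15 than fibroblasts, and 0.117-fold as much Iigp1. H2-Ab1, an MHC class II gene that interferon gamma also induces, differed by 0.42 ± 0.26 in fibroblasts (adjusted p = 0.278).

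**Figure D3:**
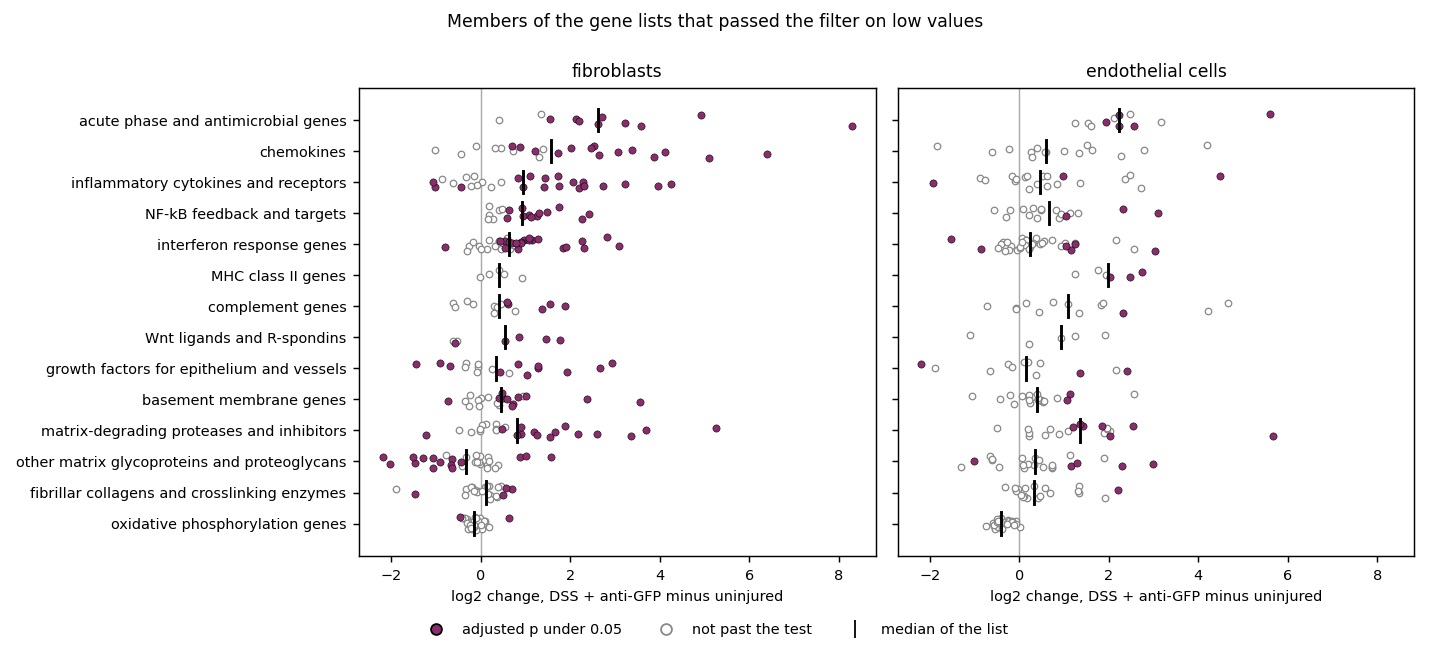
Log2 difference between DSS and uninjured mice (x axis) of the members of 14 gene lists that passed the filter on low values, in fibroblasts and in endothelial cells. Filled points passed the test, open points did not, and black bars are list medians. In fibroblasts the acute phase, chemokine and cytokine lists lie to the right (medians 2.63, 1.56 and 0.95) and other matrix glycoproteins to the left (-0.337).

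Promoter sequences of 5 genes from these lists are shown for the motifs of factors known to act downstream of inflammation. The sequences are the 150 bases before the RefSeq start of the gene, build GRCm38.p6, written 5′ to 3′ along the gene, and capitals mark the matches to a motif searched on both strands: TTGC, any 2 bases, then AA for the factor C/EBP, GGGA, any 2 bases, then TTCC for NF-kB (kappaB), GAAA, any 2 bases, then GAAA for the interferon-stimulated response element (ISRE), and TTC, any 3 bases, then GAA for the interferon gamma activated site (GAS). Saa3 and Il6 are from the acute phase and cytokine lists, Cxcl1 from the chemokines, Gbp2 and Igtp from the interferon genes. They were picked by hand and each has at least 1 match, so they do not represent their lists. The call of Cxcl1 was lost in some settings given above.
Saa3: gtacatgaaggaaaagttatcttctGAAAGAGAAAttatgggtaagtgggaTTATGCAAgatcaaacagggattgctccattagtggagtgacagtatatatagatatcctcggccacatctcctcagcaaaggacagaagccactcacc
Il6: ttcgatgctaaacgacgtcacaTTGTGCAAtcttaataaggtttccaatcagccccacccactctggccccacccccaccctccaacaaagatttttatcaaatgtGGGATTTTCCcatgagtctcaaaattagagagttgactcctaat
Cxcl1: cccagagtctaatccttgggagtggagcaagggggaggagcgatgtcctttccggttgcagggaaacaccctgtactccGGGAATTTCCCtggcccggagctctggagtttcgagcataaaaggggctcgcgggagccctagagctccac
Gbp2: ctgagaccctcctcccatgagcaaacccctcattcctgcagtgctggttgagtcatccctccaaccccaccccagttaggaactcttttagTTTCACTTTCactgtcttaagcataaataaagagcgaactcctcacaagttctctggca
Igtp: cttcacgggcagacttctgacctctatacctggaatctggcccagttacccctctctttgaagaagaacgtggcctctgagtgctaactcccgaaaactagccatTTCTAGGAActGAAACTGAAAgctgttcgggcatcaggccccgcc
The Saa3 stretch (chr7:46715677-46715826, minus strand) has an ISRE match 125 and a C/EBP match 99 bases before the start. That of Il6 (chr5:30012964-30013113) has a C/EBP match at 128 and a kappaB match at 44 bases, that of Cxcl1 (chr5:90891095-90891244) 2 overlapping kappaB matches at 71 and 70, that of Gbp2 (chr3:142620513-142620662) an ISRE match at 59 and that of Igtp (chr11:58199406-58199555) a GAS match at 45 and an ISRE match at 34. Over windows of 300 bases (250 before and 50 after the start) the ISRE motif was found in 10 of the 16 interferon genes called higher that have a window (62.5%), in 4 of 13 of those not called higher (30.8%), in 2.92% of the 8685 genes tested in fibroblasts that have a window, and in 3.51% of all 27025 promoters. The GAS motif was in 5 of the 16 (31.2%) and in 6 of the 13 (46.2%), against 6.67% of tested genes and 8.34% of all promoters. The C/EBP motif was in 5 of 6 acute phase genes called higher and in both of the 2 others, against 8.03% of tested genes and 10.7% of all promoters. The kappaB motif was in 3 of 8 chemokines called higher and 1 of 7 others, against 1.45% of tested genes and 1.46% of all promoters. It was in 1 of 13 cytokine genes called higher, the Il6 shown above, and 1 of 5 others. Of NF-kB feedback and target genes it was in none of 9 called higher and 1 of 5 others. A match is a description of letters and not a bound site, and shares over so few genes are given without a test.

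Transcripts of signals that fibroblasts send to the crypt differed in the class mean, some higher and some lower. Of 11 Wnt ligands and R-spondins 7 passed the filter, 4 were higher and 1 lower (median 0.54), against 12.4% and 9.79% of all genes. Rspo1, an R-spondin that amplifies Wnt signalling, went from 0.0816, 0.0864, 0.0722 and 0.105 to 0.179 to 0.689 (median 0.335; 1.78 ± 0.31, adjusted p = 0.000759), and Rspo3 from 0.218 to 0.332 up to 0.419 to 0.708 (0.87 ± 0.15). Wnt5a, a noncanonical ligand, stood at 0.79, 0.819, 0.738 and 0.76 and rose to 1.81 to 2.83 (median 2.11; 1.46 ± 0.15, adjusted p = 9.16e-07). None of these overlapped. The noncanonical ligand Wnt4 rose by 0.54 ± 0.19 (adjusted p = 0.0448). It lost its call without any one of 8 mice, all but DSS mouse 3 at 24 h and mouse 3 at 48 h (0.47 to 0.59, adjusted p = 0.0798 to 0.149). Wnt5b fell by 0.56 ± 0.19 (adjusted p = 0.0346). It lost its call without any one of 7, all but uninjured mouse 1 and DSS mouse 3 at 24 h and DSS mouse 1 at 48 h (-0.62 to -0.48, adjusted p = 0.0665 to 0.132). Wnt2b was at 0.192 to 0.258 and 0.094 to 0.183 and did not pass (adjusted p = 0.0701; -0.71, adjusted p = 0.0365 by limma-voom), and Rspo2 was below the filter. Secreted Wnt inhibitors were also higher in 3 of 6 tested (Sfrp1, Sfrp2 and Wif1) and lower in 1. Sfrp1, which binds Wnt ligands, was at 7.87, 6.83, 6.86 and 7.22 in uninjured and at 11.8 to 18.7 (median 15.9) in DSS mice (1.09 ± 0.16), and Dkk3 fell by 0.56 ± 0.14.

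Grem1, the BMP antagonist gremlin 1 (gene at chr2:113746164-113758646, minus strand), was at 1.65, 2.03, 1.2 and 1.36 in uninjured and at 5.09 to 7.98 (median 6.5) in DSS mice, all above (2.04 ± 0.15, adjusted p = 1.31e-08). The ligand Bmp4 was at 6.82, 7.2, 6.84 and 6.43 and at 4.04 to 5.17 (median 4.84), all below, a smaller difference (-0.52 ± 0.13, adjusted p = 0.00531). So in the class mean the transcripts of the antagonist and this ligand moved in opposite directions. With 3 fibroblast types weighted equally Bmp4 was at -0.21 and not called by limma (adjusted p = 0.335). Bmp5 did not pass (1.74 to 2.59 and 2.08 to 3.39, difference 0.18 ± 0.15, adjusted p = 0.431) and Bmp7 rose (1.16 ± 0.13). Over the lists, 4 of 11 BMP and activin family ligands were higher and 2 lower, and the antagonists Fstl3 (-1.13 ± 0.15) and Chrd (-0.67 ± 0.20) fell. Of all genes tested, 12.4% were called higher and 9.79% lower, which holds for the counts below too. Chrd was not called without DSS mouse 2 at 24 h (-0.59, adjusted p = 0.0515) or uninjured mouse 2 at 48 h (-0.61, adjusted p = 0.0831), nor among cells of 5000 to 15000 UMIs (-0.58, adjusted p = 0.0781). Of 18 growth factors tested, 8 were higher and 3 lower, and ligands of the epidermal growth factor receptor family were found on both sides. Nrg1 (neuregulin 1) went from 0.693, 0.514, 0.513 and 0.728 to 3.1 to 8.27 (median 4.69; 2.94 ± 0.25, adjusted p = 1.99e-07), and Ereg (epiregulin) from 0.647, 0.942, 1.48 and 1.46 to 4.83 to 10.8 (median 6.81; 2.66 ± 0.22, adjusted p = 6.53e-08). Hgf, the hepatocyte growth factor, rose by 1.93 ± 0.25 and Fgf10 by 0.84 ± 0.16. Areg (amphiregulin) fell by 0.91 ± 0.26, but epithelial cells held 26.5-fold more of it than fibroblasts. The call was lost without uninjured mouse 2 at 24 h (-0.83, adjusted p = 0.0773) or mouse 2 at 48 h (-0.78, adjusted p = 0.0835). Btc (betacellulin) rose by 1.27 ± 0.23 and Hbegf fell by 1.44 ± 0.32, with 47.7-fold more Hbegf in epithelial cells. Of 25 genes tested in a list of fibroblast transcription factors and Hedgehog pathway genes, 8 were higher and 4 lower. The 4 lower ones are known targets of Hedgehog signalling. Hhip fell from 1.63, 3.2, 2.14 and 2 to 0.216 to 0.508 (median 0.335; -2.66 ± 0.34, adjusted p = 7.4e-05), Gli1 by 2.14 ± 0.37, Ptch1 by 0.75 ± 0.17 with an overlap, and Foxl1, the factor of subepithelial telocytes, by 1.35 ± 0.27. The pathway's factor Gli2 was among the 8 higher (0.50 ± 0.16). Its call was lost without any one of 5 mice, uninjured mouse 2 and DSS mice 1 and 2 at 24 h and uninjured mouse 2 and DSS mouse 2 at 48 h (0.41 to 0.47, adjusted p = 0.0568 to 0.139). Pdgfra, which marks these fibroblasts, rose from 2.67 to 4.5 up to 6.29 to 11.2 (1.17 ± 0.20).

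Matrix genes did not move as 1 block. Of all genes tested, 12.4% were called higher and 9.79% lower. Basement membrane genes were higher in 10 of 22 tested and lower in 1 (median 0.445), proteases and their inhibitors in 14 of 25 and lower in 1 (median 0.804). Fibrillar collagens and their enzymes were higher in 3 of 24, near the share over all genes, and lower in 1 (median 0.124). Other glycoproteins and proteoglycans were lower in 12 of 31 and higher in 3 (median -0.337). Col18a1, a basement membrane collagen whose end fragment is endostatin (gene at chr10:77052178-77166548, minus strand), was at 1.16, 0.964, 0.852 and 1.11 in uninjured and at 8.48 to 14.1 (median 13.7) in DSS mice, far apart (3.56 ± 0.18, adjusted p = 1.13e-10). Nid2 (nidogen 2) rose by 2.37 ± 0.18 and Col4a1 by 1.02 ± 0.17, and Col15a1 fell by 0.73 ± 0.13. Col1a1 (14.2 to 20.6 and 15.7 to 23.3) and Col3a1 (38.9 to 64.4 and 47.1 to 63.3), the main collagens of the interstitium, overlapped and did not pass (adjusted p = 0.388 and 0.425), nor did Fn1 (fibronectin; adjusted p = 0.619) or the smooth muscle actin Acta2 (-0.19 ± 0.21, adjusted p = 0.56). Mmp3 (stromelysin 1) went from 0.307, 0.233, 0.6 and 0.154 to 1.98 to 5.8 (median 3.89; 3.69 ± 0.39, adjusted p = 3.44e-05). Mmp13, a collagenase, was at most 0.0193 in uninjured mice but ranged from 0.0248 to 3.25 (median 1.61) in DSS mice, so that this difference rests on unequal mice (5.25 ± 1.14, adjusted p = 0.00779), and Mmp10 was likewise uneven (0.0823 to 2.13, overlapping the uninjured 0.0421 to 0.0828; 3.36 ± 0.69). Neither was called among cells of 5000 to 15000 UMIs (4.55, adjusted p = 0.0828, and 2.62, adjusted p = 0.0555) or by limma-voom (6.75, adjusted p = 0.387, and 3.48, adjusted p = 0.0574). Cemip, which breaks down hyaluronan, had 2 UMIs in uninjured and 1942 in DSS fibroblasts, a ratio of 457 (counting interval 126 to 3775; 7.69, adjusted p = 0.0558 by limma-voom). The inhibitor Timp1 rose beside them (0.492 to 0.646 and 1.23 to 3.78; 2.18 ± 0.30), as did the membrane protease Mmp14 (1.54 ± 0.24). Among those that fell, Aspn (asporin, a small proteoglycan) went from 10.2, 10.1, 7.57 and 7.96 to 1.47 to 2.88 (median 2.16; -2.04 ± 0.17, adjusted p = 6.53e-08). Mfap5, a microfibril protein, fell by 2.19 ± 0.24, Ogn (osteoglycin) by 1.52 ± 0.24, Fbln5, a protein of elastic fibres, by 1.47 ± 0.20, and Postn (periostin) by 0.65 ± 0.15. Dcn (decorin) fell by 0.64 ± 0.21. Its call was lost without any one of 7 mice, all but uninjured mouse 1 and DSS mouse 3 at 24 h and DSS mouse 3 at 48 h (-0.69 to -0.54, adjusted p = 0.0507 to 0.111).

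The largest differences outside these lists named further genes. Chl1, a cell adhesion molecule, rose by 5.40 ± 0.32 (0.00424 to 0.0533 and 0.801 to 2.57), Serpina3m by 4.81 ± 0.29, Alpl, the tissue-nonspecific alkaline phosphatase, by 4.36 ± 0.31, Lgi2 by 3.73 ± 0.21, Sned1, a matrix protein, by 3.36 ± 0.22 and the metallothionein Mt2 by 3.24 ± 0.29. None of these overlapped. Among lower genes within the naming rule C1qtnf3 had the largest difference (3.69, 3.89, 3.41 and 3.5 in uninjured, 0.0936 to 0.382 in DSS mice, median 0.251; -3.92 ± 0.31, adjusted p = 6.71e-07), followed by Igfbp6, which binds insulin-like growth factors (2.73, 5.22, 5.14 and 4.42, then 0.188 to 0.771, median 0.271; -3.69 ± 0.42). Tppp3 fell by 3.07 ± 0.22, Ctgf, a matricellular protein and target of YAP, by 2.90 ± 0.24, Creb5 by 2.64 ± 0.24, S100a10 by 2.58 ± 0.20, Qpct by 2.54 ± 0.25, Cd34, the sialomucin of resting stromal cells, by 2.46 ± 0.29 and Igfbp3 by 2.35 ± 0.26. Ablim1, Crip2, Aard, Clec3b and Ccnd1 (cyclin D1) fell by 1.93 to 2.22. Enzymes of prostaglandin metabolism differed in part: Hpgd, which inactivates prostaglandins, fell by 1.70 ± 0.32, while Ptgs2 (cyclooxygenase 2) was at 0.543 to 2.02 and 1.3 to 5.65 and did not pass (1.10 ± 0.39, adjusted p = 0.0649), though it did without DSS mouse 3 at 24 h (adjusted p = 0.00125) and by limma-voom (1.23, adjusted p = 0.0309). Hif1a rose by 1.51 ± 0.18, but glycolysis and hypoxia genes as a list were higher in 6 of 28 and lower in 1 (median 0.0932), and oxidative phosphorylation genes in 1 of 27 and lower in 1. Over all genes 12.4% were called higher and 9.79% lower. Of 25 immediate early and heat shock genes, which dissociation can induce, 2 were higher and 6 lower, among them Klf2 (-1.90 ± 0.26), Klf4 (-1.30 ± 0.24) and Atf3 (-1.65 ± 0.25). The labels give 1 dissociation protocol for all mice.

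The makeup of the fibroblasts differed between the arms, so each difference was also read within single types. The authors' type BaseCryptFB1 was 744 of 1441 uninjured fibroblasts and 0 of 1672 DSS fibroblasts, which allows a share of up to 0.179% (counting error over the pooled cells only, not the spread between mice), while InjuryCryptFB2 and InjuryCryptFB1 were 25.9% and 11.2% of DSS fibroblasts on average. Only BaseCryptFB2, CryptFB1 and MyoFB had at least 10 cells in every mouse, and within them 528 (4.56%), 1044 (9.16%) and 624 (5.51%) genes were called higher and 347 (3%), 665 (5.83%) and 334 (2.95%) lower. These counts also move with the number of cells of a type and are not an order of response. The types were clustered on these same cells, so that which cells carry a label can itself shift with DSS.

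Of the acute phase genes tested within a type, 8 of 11 were higher in BaseCryptFB2, 5 of 10 in CryptFB1 and 2 of 5 in MyoFB, and none was lower (medians 3.36, 2.30 and 2.96, against 0.092, 0.054 and 0.121 over all genes). Of the chemokines, 10 of 18, 10 of 18 and 6 of 17 were higher and 2 were lower, both in CryptFB1 (medians 1.54, 3.59 and 2.00). Saa3 went from 0.271 to 16.6 in BaseCryptFB2 (log2 difference 8.11, adjusted p = 0.000313) and from 0.00482 to 41.8 in CryptFB1 (10.26, adjusted p = 0.00255), with 0 and 3.71 in MyoFB, which did not pass (adjusted p = 0.0953). Cxcl5 rose in all of them (7.60, 7.58 and 5.88). Other genes differed between types in size. Il11 went from 0.0262 to 4.72 in CryptFB1 and was at 0.0316 and 0.0282 in MyoFB (adjusted p = 0.959). Mmp13 reached 5.89 in CryptFB1 of DSS mice and 0.206 in CryptFB2. Grem1 rose from 2.51 to 22.1 in BaseCryptFB2 (3.19, adjusted p = 1.06e-05), and stood at 2.14 in uninjured BaseCryptFB1, at 10.1 in InjuryCryptFB1 and at 6.93 in InjuryCryptFB2 of DSS mice. Col18a1 showed the other pattern: 1.33 to 21.9 in CryptFB1 (4.21, adjusted p = 7.53e-11), 0.729 to 3.52 in MyoFB, but 0.436 and 0.516 in BaseCryptFB2 (adjusted p = 0.659). Nrg1 went from 1.59 to 11.9 and Ereg from 1.48 to 13.5 in CryptFB1, Hhip from 19.8 to 2.05 in MyoFB (-3.35, adjusted p = 2.13e-05). Whether a gene's difference differed between types was not tested.

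Some differences of the class mean were smaller, absent or turned within types. Bmp4 fell in CryptFB1 (-0.73, adjusted p = 0.00329), rose in MyoFB (0.61, adjusted p = 0.0426) and stood at 1.83 and 2 in BaseCryptFB2. With the 3 types weighted equally its difference was -0.21 (adjusted p = 0.335), and the calls of Postn (-0.14, adjusted p = 0.593), Ctgf (-0.77, adjusted p = 0.17), Igfbp3 (-0.66, adjusted p = 0.196) and Tgfb3 (-0.62, adjusted p = 0.124) were lost as well. Igfbp3 and Ctgf were at 8.61 and 6.99 in uninjured BaseCryptFB1, the type not found in the DSS mice compared here. In the SZN-1326-p arm, also given DSS, a few cells carried this label (7 in mouse 3 at 48 h). Conversely, with equal weights Col3a1 (0.78, adjusted p = 0.00342) and Col1a1 (0.61, adjusted p = 0.0121) were called higher and Acta2 lower (-1.08, adjusted p = 0.000362). Col3a1 went from 46.1 to 134 in BaseCryptFB2. Tnc (tenascin C) rose in BaseCryptFB2 (1.71) and MyoFB (1.80), where the class mean had -0.42 (adjusted p = 0.0745). Timp3 fell in BaseCryptFB2 (-2.65, adjusted p = 0.00564) and rose in CryptFB1 (3.70). Cxcl12, level in the class mean, rose in BaseCryptFB2 (1.32) and MyoFB (1.85) and fell in CryptFB1 (-0.85, adjusted p = 0.0141). By contrast Igfbp6, Tppp3, Cd34, S100a10 and Crip2 also fell within both BaseCryptFB2 and CryptFB1: Igfbp6 went from 12.3 to 1.7 and Cd34 from 9.73 to 2.73 in BaseCryptFB2. Equal weights of 5 types, with CryptFB2 and FB3 added, left 13 of the 16 mice. Uninjured mouse 1 and DSS mouse 3 at 24 h and DSS mouse 2 at 48 h had under 5 cells of a type. Uninjured mouse 2 was then alone at 24 h, so the calls with 5 types reflect fewer mice as well as the weights. With equal weights of 5 types 1985 genes were called, 1175 of them (47.7% of the 2462) among those called in the class mean in the same direction, and 4 were called in the opposite one. With the 3 types it was 1948, 1436 (58.3%) and 1. With 5 types the calls of Il1rl1 (1.56, adjusted p = 0.238), Ccl11 (0.31, adjusted p = 0.255), Hp (3.80, adjusted p = 0.0987), Isg15 (0.95, adjusted p = 0.0975), Klf4 (-0.85, adjusted p = 0.112), Hpgd (-0.86, adjusted p = 0.0552), Btc (1.06, adjusted p = 0.0578), Il11 (3.48, adjusted p = 0.0527), Mmp13 (4.07, adjusted p = 0.0508) and Timp1 (1.84, adjusted p = 0.0501) were lost, and Fn1 was called (0.63, adjusted p = 0.021). Desmin (Des), which rose in the class mean by 2.01 ± 0.46, had differences of -0.23, 1.11 and -0.34 in the 3 types, none of which passed. With 5 types weighted equally it was lower (-0.74, adjusted p = 0.0143), and it was not called among cells of 5000 to 15000 UMIs (0.37, adjusted p = 0.554).

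**Figure D4:**
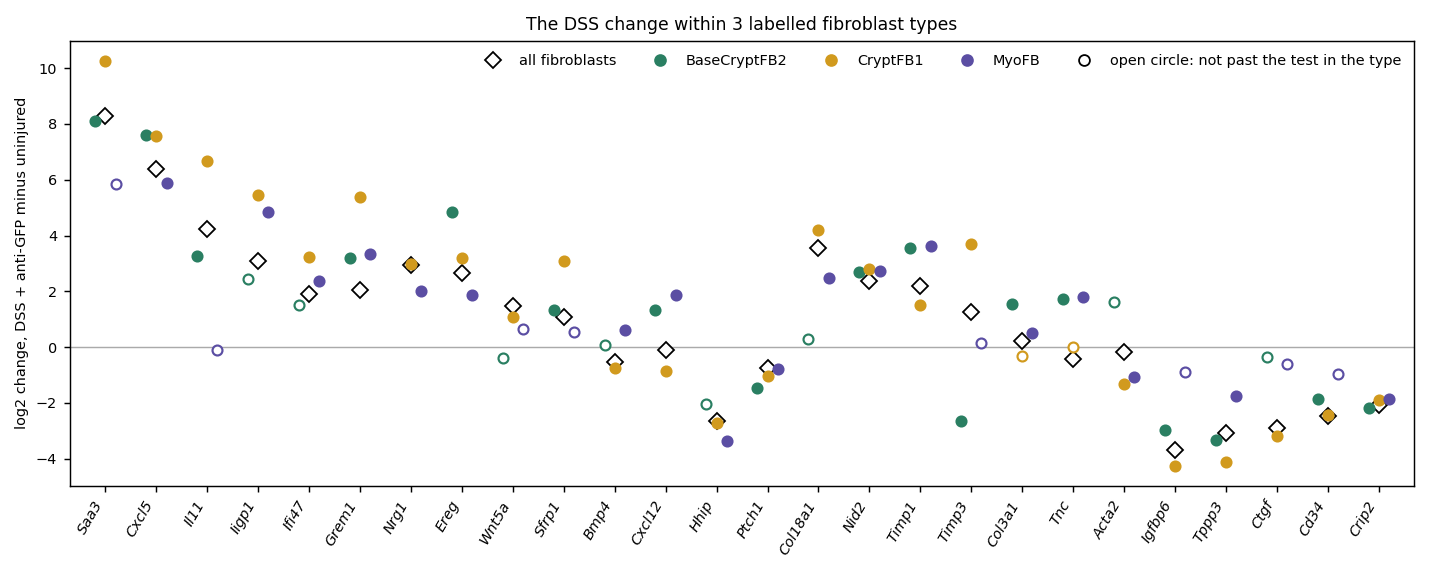
Log2 difference between DSS and uninjured mice (y axis) of 26 genes in all fibroblasts (diamonds) and in 3 labelled types (circles; open where not past the test in that type). Saa3 and Cxcl5 lie well above 0 throughout, while Timp3, Tnc, Cxcl12 and Bmp4 lie on both sides of 0 depending on the type.

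In other stroma, which pools vessels, mural cells, muscle, glia and interstitial cells, 377 of 12103 genes were higher (3.11%) and 195 lower (1.61%), 4.73% in all, with a median over all genes of 0.0366. The arms did not overlap in 5.02% of genes, and a call went with no overlap in 1.78% (higher) and 0.967% (lower). Acute phase genes were higher in 6 of 11 tested and lower in none (median 1.91), complement genes in 7 of 13 (median 1.1) and interferon genes in 8 of 36, with 1 lower. Serpina3n, a protease inhibitor, was at 0.0538, 0, 0.0399 and 0.173 in uninjured and at 0.895 to 2.83 (median 1.59) in DSS mice, with no overlap (4.99 ± 0.50, adjusted p = 0.000112). Fcgr2b, an inhibitory receptor for immunoglobulin G, rose by 2.74 ± 0.34, Col16a1 by 2.15 ± 0.23, Lbp by 2.05 ± 0.26 and Il6 by 2.03 ± 0.38. Tppp3 fell from 4.56 to 7.84 down to 0.822 to 1.66 (-2.33 ± 0.19, adjusted p = 8.83e-09), Pdlim3 by 1.53 ± 0.25 (-1.01, adjusted p = 0.0582 without cells over 10% mitochondrial share) and Filip1l by 1.13 ± 0.19. Ccl21a, the chemokine of lymphatic vessels, ranged from 5.36 to 10 and from 12.2 to 69.4 (1.69 ± 0.43, adjusted p = 0.0482) and lost its call without any one of 8 mice, all but DSS mice 1 and 3 at 48 h (1.46 to 1.91, adjusted p = 0.0637 to 0.11). The number of genes called was 256 without the endothelial cells, 268 without uninjured mouse 1 at 48 h, 338 without DSS mouse 2 at 24 h, 367 without DSS mouse 2 at 48 h and 207 and 96 with 24 h or 48 h alone. In limma-voom it was 362, with 149 higher and 213 lower, so that the balance of directions turned. Il6 was not called there (2.20, adjusted p = 0.201), nor among cells of 5000 to 15000 UMIs (1.10, adjusted p = 0.244) or without endothelial cells (1.39, adjusted p = 0.698).

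Endothelial cells, with 26 to 83 cells per mouse, had 253 of 11572 genes higher (2.19%) and 124 lower (1.07%), 3.26% in all, with a median of 0.0644 over all genes. Beside these, 8 fibroblast markers had a median difference of 0.651 in endothelial cells, 1 of them called (Col3a1, 2.21, adjusted p = 0.0456), with a summed level of 0.187 to 0.437 in uninjured and 0.232 to 0.913 in DSS mice. The 10 mural markers summed to 0.111 to 2.39 and 1.33 to 2.43. The part of RNA from these cells in the endothelial values was not tested. Acute phase genes were higher in 5 of 11 tested (median 2.23), proteases and inhibitors in 7 of 19 (median 1.36) and MHC class II genes in 3 of 6 (median 1.98). Lrg1, a glycoprotein of inflamed vessels, was at 0.984, 0.796, 1.6 and 0.757 in uninjured and at 3.61 to 6.92 (median 4.78) in DSS mice, all above (2.23 ± 0.26, adjusted p = 7.41e-06). Steap4 had no UMI in the uninjured mice and 139 in the DSS mice, at least 13.9-fold higher against a floor of 3 counts over the group. Adamts5, an aggrecanase, had 2 and 481 UMIs, a ratio of 72.4 (counting interval 19.9 to 599). Sema3a, a guidance protein that repels vessel growth, went from 0.2, 0.0488, 0.118 and 0.119 to 0.445 to 2.45 (median 1.65; 3.58 ± 0.44; 3.28, adjusted p = 0.06 by limma-voom), Serpina3n rose by 4.19 ± 0.48, Cmah by 2.36 ± 0.27, Emilin1 by 2.30 ± 0.34 and Adamts9 by 1.84 ± 0.27. Angpt2, which loosens vessels, rose by 2.41 ± 0.50, a call lost without uninjured mouse 1 at 48 h (1.77, adjusted p = 0.053) and in limma-voom (2.22, adjusted p = 0.268). Of the adhesion molecules, Vcam1 had 2 UMIs in uninjured and 113 in DSS mice (ratio 17, counting interval 4.6 to 142), and its call was lost without uninjured mouse 2 at 24 h (2.53, adjusted p = 0.066) or mouse 1 at 48 h (2.71, adjusted p = 0.0686), in limma-voom (2.70, adjusted p = 0.335) and with a pseudocount of 0.1 (1.31, adjusted p = 0.169). Selp, P-selectin (0 to 1.11 and 1.21 to 6.92, adjusted p = 0.0529), Madcam1 (adjusted p = 0.106), Sele (adjusted p = 0.639) and Ackr1 (adjusted p = 0.732) did not pass. Selp was called without uninjured mouse 2 at 48 h (4.88, adjusted p = 0.00303) and with a pseudocount of 0.1 (2.73, adjusted p = 0.0401), and Madcam1 with the 10 compared mice alone (3.08, adjusted p = 0.00487). Plvap, a marker of fenestrated vessels, stood at 19.4 to 25.1 and 14.5 to 29.3 (adjusted p = 0.605). H2-Ab1 passed in endothelial cells (2.73, adjusted p = 0.00213), but overlapped and was at 34.1 in immune cells of the DSS mice. Tppp3 fell by 4.05 ± 0.42, Rbp7, a retinol-binding protein of capillaries, by 1.71 ± 0.23, Cst3 by 1.56 ± 0.21, Rgcc by 1.47 ± 0.21 and Cavin2, a protein of caveolae, by 1.32 ± 0.19. In vascular endothelial cells alone 179 genes were called, 155 of them among the 377, and the calls of Serpina3n (0.89, adjusted p = 0.717), Cmah (0.65, adjusted p = 0.662), Slc39a14 (0.98, adjusted p = 0.318), Adamts5 (2.33, adjusted p = 0.212), Angpt2 (1.96, adjusted p = 0.14), Vcam1 (2.82, adjusted p = 0.202) and Klf2 (-0.64, adjusted p = 0.0527) were lost. Without uninjured mouse 1 at 48 h 178 genes were called, without uninjured mouse 1 at 24 h 619, without DSS mouse 3 at 24 h 567, and with 24 h or 48 h alone 204 and 80. In limma-voom 328 genes were called, 123 higher and 205 lower, and Adamts5 was not (5.32, adjusted p = 0.0709).

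The DSS difference itself was then compared between fibroblasts and endothelial cells of the same mice. It differed in 118 of 10178 genes (1.16%), more positive in fibroblasts for 41 and in endothelial cells for 77. Among genes of inflammation, the fibroblast difference was larger for Saa3 (by 5.14 ± 0.99, adjusted p = 0.0256), Lcn2 (by 3.40), Bcl3 (by 1.50) and Osmr (by 1.19; 1.09 in fibroblasts against -0.09 in endothelial cells). It was also larger for the interferon genes Iigp1, Ifi47 and Isg15. Others, chosen here after their values were seen, went the opposite way. Gbp6, an interferon-induced guanosine triphosphatase, differed by 1.16 in fibroblasts and 3.68 in endothelial cells. Serping1, the C1 inhibitor of complement, differed by -0.30 and 2.31. Il17ra, a receptor of interleukin-17, had no UMI in uninjured endothelial cells and 0.0954 to 0.467 in DSS mice, and rose by 0.84 in fibroblasts. In vascular endothelial cells alone Gbp6 (2.37, adjusted p = 0.192), Serping1 (1.82, adjusted p = 0.161) and Il17ra (adjusted p = 0.504) were not called. Iigp1 was already at 4.53, 3.88, 4.71 and 6.21 in endothelial cells of uninjured mice and at 4.4 to 8.15 in DSS mice, so that its difference was 3.10 in fibroblasts and 0.25 in endothelial cells (2.85 ± 0.29 apart, adjusted p = 0.00119). Isg15 rose by 0.91 in fibroblasts and fell by 0.86 in endothelial cells (adjusted p = 0.0193 for the difference of 1.77). The endothelial call was lost without any one of 5 mice, uninjured mouse 2 and DSS mouse 2 at 24 h and uninjured mice 1 and 2 and DSS mouse 2 at 48 h (-0.90 to -0.74, adjusted p = 0.0603 to 0.0825). In the matrix, Col18a1 (3.78), Nid2 (1.95) and Sned1 (2.04) had larger fibroblast differences, as did Alpl (4.97). In vascular endothelial cells alone Col18a1 was called higher (2.66, adjusted p = 0.00644), against -0.22 in all endothelial cells, and its difference from fibroblasts was not tested there. Endothelial cells had the larger difference for Adamts5 (5.68 against 0.35), Sema3a (3.58 against 0.11), Steap4 (5.60 against 2.13) and Cmah (2.36 against -0.79). The endothelial sizes of Adamts5 and Steap4 depend on the 0.01 added to each level, as uninjured endothelial cells had 2 and 0 UMIs of them. Fbln5 moved in opposite directions, -1.47 in fibroblasts and 1.30 in endothelial cells (1.46, adjusted p = 0.0527 in vascular endothelial cells alone), and Postn did as well (-0.65 and 2.99), beside the fibroblast markers in endothelial cells given above. Cd34 fell in fibroblasts by 2.46 and stood at 4.57 to 5.68 and 5.38 to 8.97 in endothelial cells (adjusted p = 0.202). Ctgf, Ccnd1, Ablim1, Cd36, Crip2 and Klf4 had fallen in fibroblasts and did not pass in endothelial cells, and Klf2 and S100a10 fell in both, by 1.17 and 1.26 more in fibroblasts. The endothelial call of Klf2 was lost without uninjured mouse 2 at 24 h (-0.60, adjusted p = 0.0853) or mouse 1 at 48 h (-0.70, adjusted p = 0.0773). With the 10 compared mice alone 21 genes differed, without uninjured mouse 1 at 48 h 55, without DSS mouse 2 at 48 h 73, and with 24 h or 48 h alone 35 and 20.

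**Figure D5:**
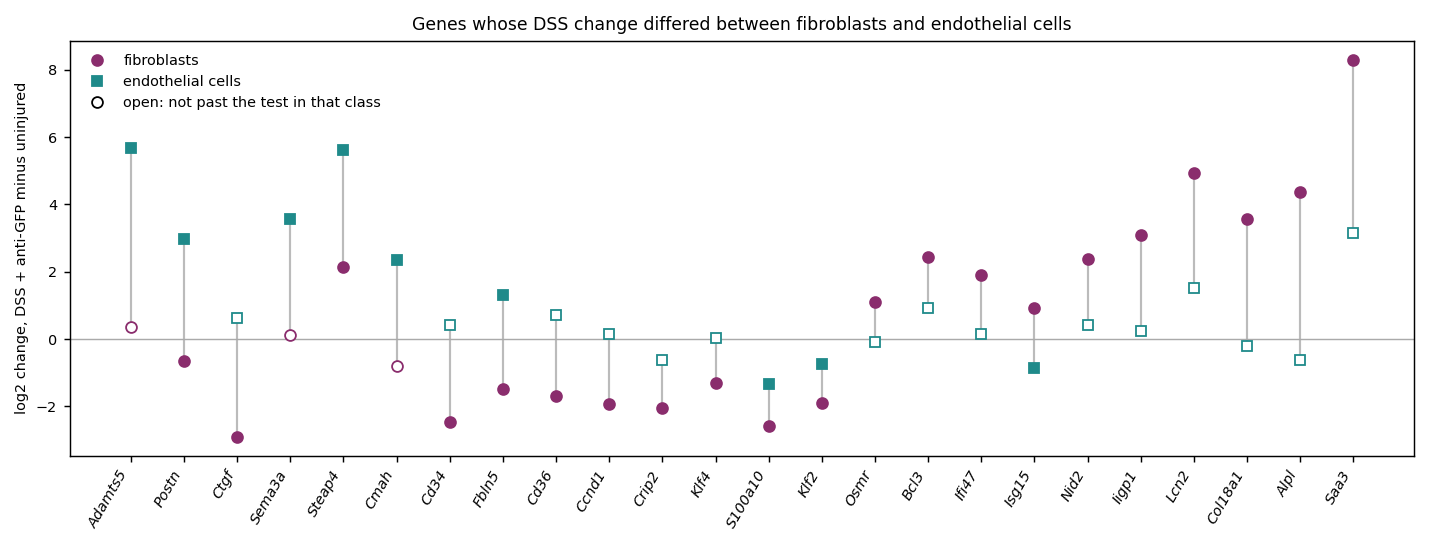
Log2 difference between DSS and uninjured mice (y axis) of 24 genes in fibroblasts (circles) and endothelial cells (squares), ordered by the difference between both, filled where past the test in that class. Adamts5, at 0.35 and 5.68, lies at the left end and Saa3, at 8.30 and 3.16, at the right end.

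The difference between DSS and uninjured mice was also compared between 24 h and 48 h. No gene differed in fibroblasts by limma at an adjusted p under 0.05 (350 of 11110 had an unadjusted p under 0.05), and none did in limma-voom (226 unadjusted). In other stroma and in endothelial cells the same single gene did (0.00826% and 0.00864% of genes; 765 and 835 at an unadjusted p under 0.05), and none in limma-voom (496 and 514). This was Sema3g, a semaphorin of arteries, named here after its value was seen: in endothelial cells it averaged 0.192 and 0.884 in uninjured mice and 1.18 and 0.646 in DSS mice at 24 h and 48 h (-3.15 ± 0.54, adjusted p = 0.0159). With 2 uninjured mice per time this comparison had little precision, and values such as those of Il11 (0.635 and 0.825 in DSS mice 2 and 1 at 48 h, 0.0868 in mouse 3, and 1.25 to 3.28 at 24 h) can be given only side by side.

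Among stromal cells, the fibroblast share was 82.2% ± 4.55 (SD, n = 4) without injury and 74.1% ± 6.53 (SD, n = 6) with DSS (exact permutation test, two-sided, p = 0.08, adjusted p = 0.104). Without DSS mouse 3 at 24 h, which had the highest share of the DSS mice (81.6%), the p was 0.0167 by the same exact test. That is the smallest p that the remaining arrangements allow. The p without each of the other mice is not given here. As a share of all cells they were 22.5% ± 6.73 and 25.0% ± 5.98 (exact permutation p = 0.44).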

How the data were processed

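Single-cell RNA-seq libraries of the transverse colon of 16 mice were made on the 10x Genomics platform. Reads were processed with Cell Ranger 3.0.2 on mm10, per the submitters' processing notes. The authors deposited log2 values, 1 matrix of 16039 genes and 22717 cells, with a label for layer and cell type of each cell. Un-logged and scaled, 100% of the 60867816 non-zero entries were whole UMIs (tolerance 1e-06), so the deposited log2 values are log2(UMI / size factor + 1). How the size factors were made is not given in the sources used here. Samples labelled SWAP in the annotation were taken as SZN-1326-p and only add to the spread.

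Values were un-logged and averaged per mouse and class (at least 20 cells, 10 within a type). limma 3.58.1 (trend and robust; R 4.3.3) was fitted on log2(mean + 0.01) over 6 groups of 16 mice, for genes with a mean of at least 0.05 in 2 mice, with Benjamini-Hochberg adjustment over all genes tested. Single measures had an exact permutation test within time (100 arrangements). Count ratios carry 95% counting intervals and a floor of 3 counts. Named genes were up to 15 per direction and class by size of difference, with a level of at least 0.5, no overlap between arms and no more than 3-fold higher in other layers, up to 4 per list, and genes given by name. Other list members named as examples were picked after their values were seen, and the members and lists themselves were chosen with earlier results of these data known. On simulated data the fit recovered 9.09% of 1.5-fold, 53.7% of 2-fold and 100% of 4-fold differences in fibroblasts (10923 genes), and 0%, 15.4% and 53% in endothelial cells (11525 genes). The simulation gave every gene the same spread between mice. Its rates therefore do not hold for genes with unequal mice such as Il11 and Mmp13. Alternatives covered filter, pseudocount, scaling, limma-voom, mice, times, cells and type weights. Promoters are from RefSeq (GRCm38.p6) and gene positions from GENCODE vM21 (mm10). Some results on individual genes are not reported here.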

Additional observations from a re-analysis of the deposited data

Results flagged for a closer look

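Gaps within an arm were tested in 358 groups of mice and 11 stood out (3.07%, where chance gives about 1 in 20). In fibroblasts 1 uninjured mouse had Csf3 at 0.00211 against 0 in the others, uninjured mouse 1 at 24 h had Col4a1 at 10.4 and Vcan at 4.66, above the other uninjured mice, and Serping1 at 7.42, below them, and DSS mouse 3 at 24 h had Emilin1 at 3.62, below the other DSS mice. In other stroma DSS mouse 1 at 24 h was low in C3 (0.226), and uninjured mouse 2 at 48 h was low in Filip1l (2.94). In endothelial cells DSS mouse 3 at 24 h was high in Cd36 (9.8), DSS mouse 3 at 48 h was low in Col18a1 (0.0308), uninjured mouse 1 at 24 h was high in Rsad2 (3.14) and uninjured mouse 2 at 24 h was high in Cd34 (5.68).

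Apart from the epithelial marker Reg3b, the DSS difference itself differed between fibroblasts and endothelial cells for 30 named genes. It is given as the fibroblast minus the endothelial log2 difference. It was more positive in fibroblasts for Saa3 (5.14), Alpl (4.97), Col18a1 (3.78; in vascular endothelial cells alone Col18a1 was itself higher, by 2.66), Lcn2 (3.40), Iigp1 (2.85), Rgcc (2.12), Sned1 (2.04), Nid2 (1.95), Isg15 (1.77), Ifi47 (1.75), Bcl3 (1.50) and Osmr (1.19). It was more positive in endothelial cells for Adamts5 (-5.33), Il17ra (-3.64, a fitted value that depends on the pseudocount, as uninjured endothelial cells had no UMI), Postn (-3.63), Ctgf (-3.54), Sema3a (-3.47), Steap4 (-3.47), Cmah (-3.15), Cd34 (-2.87), Fbln5 (-2.77), Serping1 (-2.61), Ablim1 (-2.60), Gbp6 (-2.52), Cd36 (-2.40), Ccnd1 (-2.08), Crip2 (-1.43), Klf4 (-1.32), S100a10 (-1.26) and Klf2 (-1.17). The values of Adamts5 and Steap4 depend on the pseudocount too, as uninjured endothelial cells had 2 and 0 UMIs of them.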

How the results depend on the processing

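For fibroblasts 2462 genes were called. The count was 1168 with 24 h alone, 901 with 48 h alone, 1147 for genes with a mean of at least 0.5, and 1570 to 3009 when 1 mouse was left out. For other stroma 572 genes were called, against 357 with the 10 compared mice, 362 in limma-voom, 207 and 96 with 24 h or 48 h alone, 932 with a library term (for libraries high in long genes, 3 of the 10), 256 without endothelial cells, and 268 to 856 without 1 mouse. For endothelial cells 377 were called, against 209 with the 10 mice, 204 and 80 with 24 h or 48 h alone, 607 with a library term, 179 in vascular cells alone, and 178 to 619 without 1 mouse. The difference between fibroblasts and endothelial cells was called for 118 genes, against 201 with a pseudocount of 0.1, 21 with the 10 mice, 214 on CPM, 35 and 20 with 24 h or 48 h alone, and 55 to 157 without 1 mouse. Within types the counts without 1 mouse were 495 to 1494 in BaseCryptFB2, 1127 to 2011 in CryptFB1, 624 to 2201 in MyoFB, 494 to 1611 in CryptFB2 and 81 to 119 in FB3. The difference between times was called for 0 genes in fibroblasts, 5 and 1 with equal weights of 5 and 3 types, and 0 to 2 without 1 mouse. In other stroma it was 1, and 0 without a filter, with the 10 mice, on CPM, in limma-voom, under 10% mitochondrial share and without endothelial cells, 2 with a pseudocount of 0.1, 3 with at least 50 cells, 4 with a library term, 116 among cells of 5000 to 15000 UMIs and 0 to 20 without 1 mouse. In endothelial cells it was 1, and 0 without a filter, with the 10 mice, on CPM, in limma-voom and under 10% mitochondrial share, 3 with a library term and 0 to 52 without 1 mouse. The cause of these shifts was not tested; fewer mice or genes enter several of the fits. Leaving out 1 of 2 uninjured mice at a time leaves a lone mouse that is assumed to vary like the others. Equal weights of 5 types do so as well, at 24 h.

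The log2 ratio of the fibroblast share of stroma was -0.154, and 0.172 as a share of all cells; without 1 mouse it was -0.197 to -0.1. Reversed genes were Tgfb2 (0.16), Col15a1 (0.10) and Des (-0.74) with equal weights of 5 types, Col15a1 (0.33), Tnc (0.65) and Des (-0.29) with 3 types, Sema3a in other stroma without endothelial cells (-0.31) and Col18a1 in vascular cells alone (2.66, there called higher). Of 3340 fibroblast values of named genes under alternatives, 3126 kept direction and call, as did 789 of 857 in endothelial cells and 461 of 517 in other stroma. Deviations of uninjured and DSS mice with the same replicate number had correlations of 0.252 and -0.224 at 24 h and 0.141 and 0.0275 at 48 h. With 2 uninjured mice per time these cannot decide whether replicate numbers pair the mice. With the replicate block 3238 genes were called in fibroblasts, 738 in other stroma, 384 in endothelial cells, 32 for the difference between classes, and 2 and 2 for times in other stroma and endothelial cells; Sele was then called in endothelial cells (2.85, adjusted p = 0.0308). Leaving out cells with 2 markers of another lineage was not run because too few cells remained, nor were endothelial cells with at least 50 cells per mouse or of 5000 to 15000 UMIs. Endothelial means rest on 26 to 83 cells per mouse, which limits their precision.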
